A study of Mus musculus with 192 samples.

Results

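The chemokine genes were the genes whose symbol is Ccl, Cxcl, Cx3cl or Xcl followed by a number and, at most, a letter from a to d. There were 38 of them among the 54752 genes of the deposited table. All 38 were followed in 9 tissues. Lymphoid organs were represented by thymus (Thy) and spleen (Spl), and fat by the epididymal white (eWAT) and interscapular brown (iBAT) depots. The others were cerebrum (Cbr), kidney (Kid), liver (Liv), and the mandibular (MdB) and temporal (TpB) bones. The question was which chemokine genes differ between flight and ground, between WT and Nrf2-KO mice, and between the flight responses of both genotypes.

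Male C57BL/6J mice (WT) and Nrf2-KO mice on the same background, which carry a germline knockout allele of Nfe2l2, the gene of the transcription factor Nrf2, were housed singly for a month on the International Space Station (FL_WT and FL_KO) or in ground control cages (GC_WT and GC_KO). The labels give an age of 12 weeks for all groups. The knockout affects every cell type and is present from conception, and Nrf2-KO mice with a hepatic shunt had been removed by the study before the experiment. Flight mice were dissected in California after their return to Earth, and the ground mice were kept and dissected in Japan at a later date. Flight therefore cannot be told apart from landing, place and date in any comparison below.

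RNA-seq libraries were made for 192 samples from 24 mice, with 6 mice per group and 3 per group in MdB and Kid. Flight mouse 04, a Nrf2-KO mouse with intestinal hemorrhage, was left out, so that 184 samples from 23 mice were used and FL_KO held 5 mice, or 2 in MdB and 3 in Kid. The tissues came from the same mice, so that results in several tissues are not independent of each other. Total counts were 8.01 to 10.6 M (1e6 reads) per library in Thy, where ribosomal RNA was depleted, and 13.0 to 16.3 M in the other tissues, where poly(A) RNA was selected. Nfe2l2 was lower in every Nrf2-KO sample than in every WT sample in all 9 tissues, and the mean TPM of the Nrf2-KO samples was 28.2 to 81.9% of that of WT. In iBAT the summed TPM of 7 skeletal muscle genes was 7856 in FL_KO 11, 6385 in FL_WT 06 and 3098 in FL_WT 08, against at most 66.81 in every other mouse. Chemokine calls in iBAT were therefore also fitted with each of these 3 mice left out in turn, but not with all 3 left out. Marker and receptor genes were not fitted this way.

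Chemokines are small secreted proteins that bind G protein-coupled receptors on leukocytes and set the direction in which these cells move. Inflammatory chemokines such as Ccl2 and Cxcl1 are induced by cytokines and NF-kB in tissue cells and macrophages, while homeostatic ones such as Cxcl12, Ccl19, Ccl21, Ccl25 and Cxcl13 keep lymphocytes and their precursors in place in lymphoid organs. Cx3cl1 and Cxcl16 are made as transmembrane proteins. In obese adipose tissue, Ccl2 is best known for drawing in monocytes through Ccr2.

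Levels between genes were compared as TPM, which accounts for transcript length. Of the 38 genes, 33 had enough counts to be tested in at least 1 tissue and 7 in all 9, namely Ccl6, Ccl9, Ccl25, Ccl27a, Cx3cl1, Cxcl12 and Cxcl16. Ccl1, Ccl26, Ccl27b, Cxcl3 and Cxcl15 were tested in none. This left 161 of 342 pairs of gene and tissue, with 27 genes in TpB, 26 in eWAT, 22 in Thy, 21 in Spl, 17 in Kid, 15 in Liv, 13 in iBAT and 10 each in MdB and Cbr.

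Each tissue had its own leading chemokines. Cxcl12, the ligand of Cxcr4, led in TpB (mean 234 TPM over all mice), Liv (229.55 TPM), iBAT (23.2 TPM) and Kid (74.6 TPM), and came second in MdB (57.6 TPM), Spl (667 TPM) and eWAT (87.8 TPM). Spl was led by Ccl21a, a Ccr7 ligand of the T cell zone, at 831 TPM, and also held Cxcl13, the Cxcr5 ligand of B cell follicles, at 384 TPM. Thy was led by Ccl25, the Ccr9 ligand of thymic epithelium, at 327 TPM, followed by Ccl21a at 146 TPM and Cxcl12 at 77.8 TPM. In eWAT the highest level was that of the macrophage chemokine Ccl6 at 194 TPM, and Ccl11, the eosinophil attractant eotaxin, followed Cxcl12 at 80.1 TPM. Cbr was led by Cx3cl1, the neuronal ligand of microglial Cx3cr1, at 535 TPM, ahead of Ccl27a at 152 TPM and Cxcl14 at 115 TPM. Cxcl14 led in MdB at 69.1 TPM and was among the first 3 in TpB at 37.6 TPM and in iBAT at 11.4 TPM. Ccl27a was among the first 3 in TpB (44.5 TPM), MdB (35.3 TPM), Liv (11.6 TPM) and iBAT (11.4 TPM), and Ccl9 was among them in Liv at 11.3 TPM. Next after Cxcl12 in Kid were Cx3cl1 at 36.3 TPM and Cxcl16 at 20.7 TPM.

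**Figure D1:**
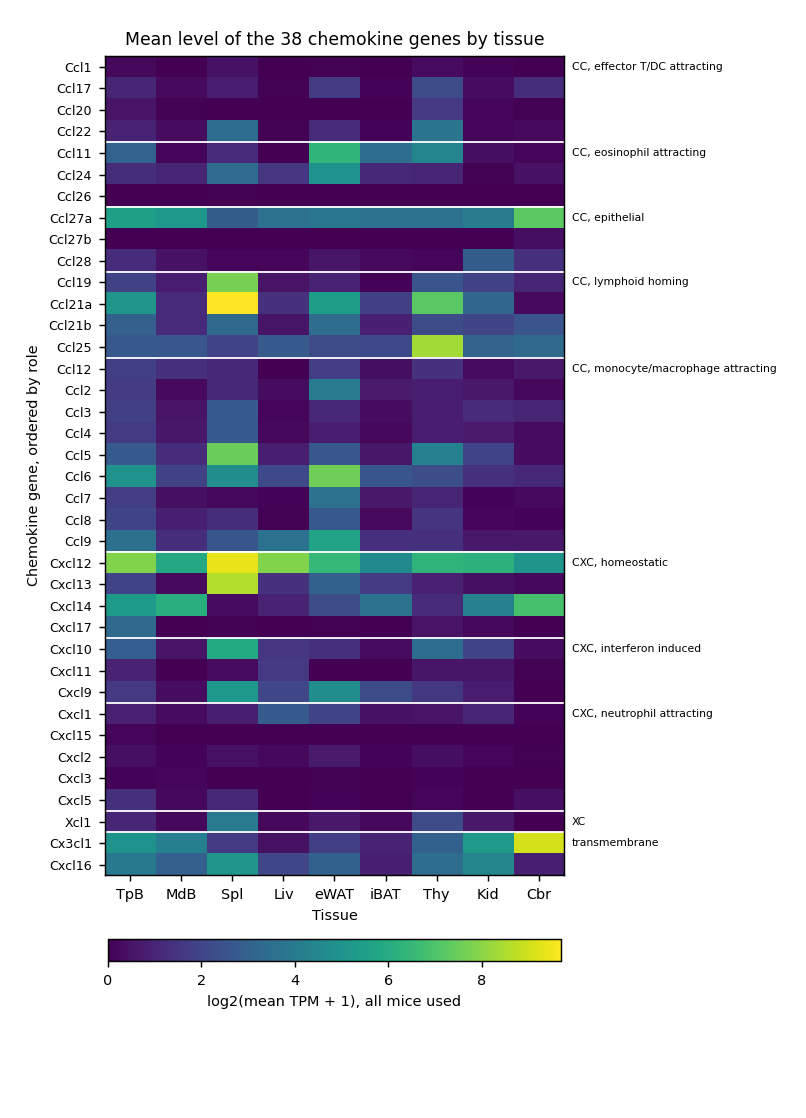
Mean level of each of the 38 chemokine genes (rows, ordered by role) in the 9 tissues (columns), as log2(mean TPM + 1) over all mice used. The brightest cells are Ccl21a, Cxcl12 and Cxcl13 in Spl, Ccl25 in Thy and Cx3cl1 in Cbr, while Ccl26, Cxcl15 and Cxcl3 have a mean of at most 0.106 TPM in every tissue.

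A gene was called in a comparison when edgeR's adjusted p, taken over all genes tested in the tissue, was under 0.05. Between FL_WT and GC_WT, 17 of the 161 pairs were called, 14 higher and 3 lower in flight, while 3.23% of all genes tested over the 9 tissues were higher and 3.32% lower. Between FL_KO and GC_KO, 25 pairs were called, 19 higher and 6 lower, against 4.43% and 4.48% of all genes. The genotypes differed in 7 pairs on the ground (GC_KO against GC_WT, 2 higher and 5 lower in Nrf2-KO; all genes 0.836% and 0.814%) and in 11 pairs in flight (FL_KO against FL_WT, 2 higher and 9 lower; all genes 0.5% and 0.855%). Over all comparisons and tissues, 24 of the 38 genes were called at least once. The matching share of all genes was not computed, so this count is not shown to be particular to chemokines. In Thy between FL_KO and GC_KO alone, 38.2% of all genes tested were called. Ccl28 was called most often, 7 times in 4 tissues.

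The difference between the flight responses of Nrf2-KO and WT mice was tested as an interaction. None of the 161 pairs was called by edgeR or DESeq2, and edgeR called 0% of all genes tested. limma called none of the pairs it tested. Here and below, it tested only genes whose mean TPM reached 1 in a group, so it says nothing on the others. At an unadjusted p under 0.05, 12 pairs were above 0 and 16 below 0. A call in 1 genotype alone is therefore not shown to differ from the other genotype anywhere below.

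The calls were spread unevenly over tissues. In TpB and MdB no chemokine gene was called in any comparison by edgeR, DESeq2 or limma. Unadjusted p-values under 0.05 were found there for 1 of 27 genes in TpB and 0 of 10 in MdB between FL_WT and GC_WT, and for 2 and 1 between FL_KO and GC_KO. Between GC_KO and GC_WT they were found for 0 and 1, and between FL_KO and FL_WT for 0 and 3. Of all genes tested in TpB, 0% were called in either flight comparison, 0.198% between GC_KO and GC_WT and 0.203% between FL_KO and FL_WT, and the shares in MdB were 0%, 0%, 0.244% and 0.208%.

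eWAT held 9 of the 17 calls between FL_WT and GC_WT. There, 9 of the 26 chemokine genes tested were called between FL_WT and GC_WT, 8 higher and 1 lower, where 13.4% of all genes tested in eWAT were called and 6.65% were higher. The median log2 fold change was 0.49 over the 26 genes and near 0 over all genes (-0.004). The genes that rose were the monocyte attractants Ccl2, Ccl7, Ccl12, Ccl6 and Ccl9, the neutrophil attractant Cxcl1, and the Ccr4 ligands Ccl17 and Ccl22.

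Ccl2 and Ccl7, which both act on Ccr2 and lie side by side on chromosome 11 (GRCm38, 82035571-82037453 and 82045712-82047525, plus strand), gave the smallest adjusted p-values. Ccl2 had a lowest, median and highest level of 1.79, 4.15 and 11.2 TPM in the 6 GC_WT mice and of 8.35, 35.3 and 59.6 TPM in the 6 FL_WT mice. A single FL_WT mouse lay inside the range of GC_WT. The log2 fold change was 2.78 ± 0.43 (SE, adjusted p = 0.000191). Ccl7 was 1.67, 3.53 and 7.69 TPM in GC_WT and 6.92, 28.0 and 38.3 TPM in FL_WT, again with 1 FL_WT mouse inside the range of GC_WT (log2 fold change 2.70 ± 0.40, adjusted p = 0.000129). These calls held under every alternative tried, with log2 fold changes of 2.61 to 3.17 for Ccl2 and of 2.47 to 3.0 for Ccl7.

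Cxcl1, the Cxcr2 ligand, was 0.38, 0.955 and 1.8 TPM in GC_WT and 2.18, 4.61 and 15.9 TPM in FL_WT. The groups did not overlap. Its log2 fold change was 2.51 ± 0.42 (adjusted p = 0.000347) and 1.96 without FL_WT 06, the mouse at 15.9 TPM. Its promoter is shown here because Cxcl1 was the chemokine gene called higher in eWAT in both genotypes. The window is the 250 bases before the start (RefSeq, GRCm38.p6, chr5:90890995-90891244, plus strand). It holds 1 form of the NF-kB motif (GGG, any 2 bases, then TTTCC) at 2 places. For comparison, the promoter of Ccl9 (chr11:83578637-83578886, minus strand) holds it once, at base -35. Capitals mark the motif on either strand, and each sequence runs 5′ to 3′ towards the start of the gene.
Cxcl1: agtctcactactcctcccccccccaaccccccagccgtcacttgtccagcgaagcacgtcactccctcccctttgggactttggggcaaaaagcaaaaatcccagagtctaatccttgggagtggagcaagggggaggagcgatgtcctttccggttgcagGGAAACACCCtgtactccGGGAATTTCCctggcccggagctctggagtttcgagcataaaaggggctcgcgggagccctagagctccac
Ccl9: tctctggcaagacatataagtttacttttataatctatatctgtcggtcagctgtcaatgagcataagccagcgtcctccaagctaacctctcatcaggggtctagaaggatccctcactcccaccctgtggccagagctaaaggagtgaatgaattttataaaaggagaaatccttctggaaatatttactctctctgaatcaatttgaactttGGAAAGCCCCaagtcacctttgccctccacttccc

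Of the 38 genes, 27 had a RefSeq promoter, 33 promoters in all. Ccl2 and Ccl7 had none and were not searched. This form of the NF-kB motif was found in 5 of the 33, in Ccl9, Ccl20, Cxcl1, Cxcl2 and Cxcl3. It was found in 1.41% of all 32851 promoters of the same length, with both strands searched. Other forms of the NF-kB motif were not searched, so the other promoters are not shown to lack one. A match of letters is a description and not a binding site.

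Ccl6, Ccl9 and Ccl12, further ligands of Ccr1 and Ccr2, were also higher in eWAT of FL_WT. Ccl6 was 137, 168 and 198 TPM in GC_WT and 184, 260 and 445 TPM in FL_WT (log2 fold change 0.63 ± 0.15, adjusted p = 0.00617), and the groups overlapped at their edges. Ccl9 had a log2 fold change of 0.65 ± 0.18 (adjusted p = 0.0213) and Ccl12 one of 1.44 ± 0.48 (adjusted p = 0.0497). The call of Ccl9 was lost without FL_WT 03 or FL_WT 06 (adjusted p up to 0.0614). Ccl17, which attracts Ccr4-positive T cells, went from 0, 0.77 and 1.26 TPM in GC_WT to 1.04, 4.48 and 7.29 TPM in FL_WT, with 1 FL_WT mouse inside the range of GC_WT (log2 fold change 2.39 ± 0.63, adjusted p = 0.0142). Its neighbour on chromosome 8, Ccl22, had a log2 fold change of 1.49 ± 0.48 (adjusted p = 0.0416). Ccl12 and Ccl22 were named after their values were seen.

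Not every chemokine of eWAT passed the test between FL_WT and GC_WT. Ccl3 (log2 fold change 1.38 ± 0.56, adjusted p = 0.109), Ccl5 (0.52 ± 0.31, adjusted p = 0.31), Ccl11 (0.43 ± 0.19, adjusted p = 0.16) and Ccl8 (0.05 ± 0.63, adjusted p = 0.971) were not called. Ccl27a, a ligand of Ccr10 made by epithelia, was the 1 gene that fell (10.957 TPM on average in FL_WT and 14.417 TPM in GC_WT, log2 fold change -0.57 ± 0.16, adjusted p = 0.021). Part of the reads of Ccl27a are shared with near-identical copies, so its level is uncertain, and its call was lost without FL_WT 06, FL_WT 08 or GC_WT 10. Without FL_WT 06, 5 chemokine genes were called in this comparison, all higher.

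Markers of macrophages moved with the chemokines of eWAT. Of 14 macrophage genes tested between FL_WT and GC_WT, 6 rose and 1 fell, among them Cd68 (log2 fold change 0.86 ± 0.17, adjusted p = 0.00187) and Itgax (1.12 ± 0.27, adjusted p = 0.00811), while Cd14, a coreceptor for bacterial lipopolysaccharide, fell (-0.64 ± 0.15, adjusted p = 0.00528). The summed TPM of the 15 macrophage genes was 740 to 967 in GC_WT and 991 to 1674 in FL_WT, without overlap, and no gene of the list was at 0 in all mice of a group. The highest value, 1674, was that of FL_WT 03, in which 6 B cell genes summed to 91.2 TPM against at most 26.03 TPM in every other mouse. Without FL_WT 03, 6 chemokine genes were higher and 1 was lower in FL_WT, with Ccl2 at 2.63 (adjusted p = 0.000505) and Ccl7 at 2.64 (adjusted p = 0.000316). The part of these cell types in the chemokine result was not tested, and in bulk tissue more cells of a type and more RNA per cell cannot be told apart. Of 12 immediate early genes, 4 rose (Fos 1.61 ± 0.33, adjusted p = 0.00236; Junb 0.62 ± 0.18, adjusted p = 0.0277; Fosb and Egr1 as well). Of 12 inflammatory genes tested, Relb (0.50 ± 0.11, adjusted p = 0.00427) and Icam1 (0.44 ± 0.11, adjusted p = 0.00897) rose and none fell. In this comparison 13.4% of all genes tested in eWAT were called and 6.65% were higher. The inflammatory count is not shown to exceed these shares. Of 17 chemokine receptors tested, 1 was called, the decoy receptor Ackr1, which binds Ccl2 and Cxcl1 on venules and fell (-0.77 ± 0.21, adjusted p = 0.0185).

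**Figure D2:**
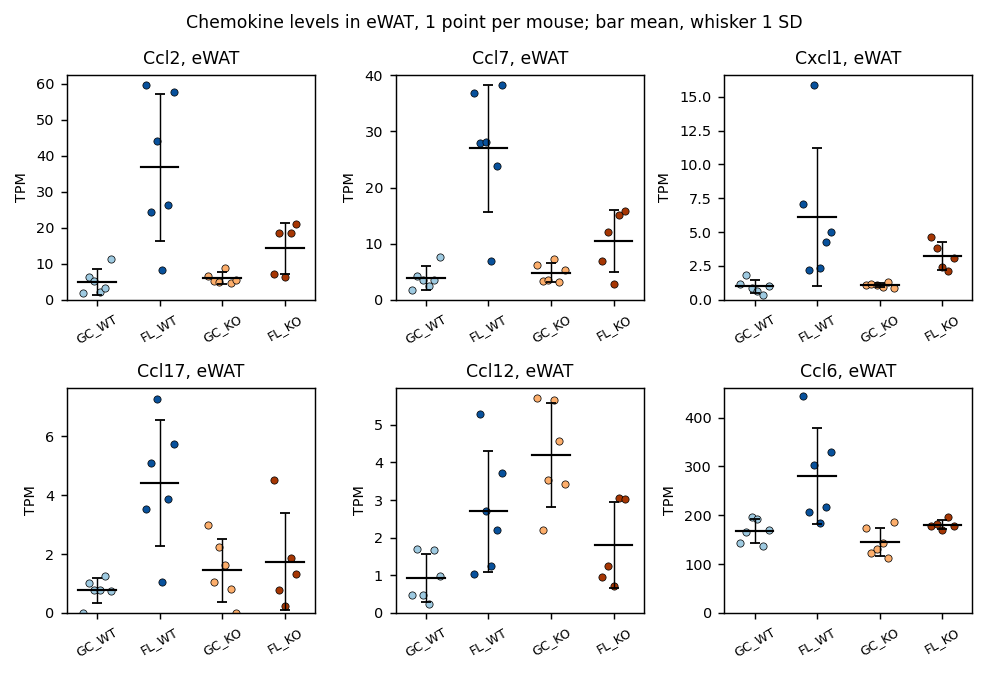
TPM of 6 chemokine genes in eWAT by group (horizontal axis), with 1 point per mouse, the mean as a bar and 1 SD as a whisker cut at 0. All FL_WT mice stand above all GC_WT mice for Cxcl1, and all but 1 do so for Ccl2 and Ccl7, while Ccl12 is higher in all GC_KO mice than in all GC_WT mice.

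In eWAT of Nrf2-KO mice, 2 of 26 genes were called between FL_KO and GC_KO, where 7.71% of all genes were called. Cxcl1 rose, with 0.9, 1.1 and 1.33 TPM as the lowest, median and highest level in GC_KO and 2.14, 2.4, 3.06, 3.81 and 4.63 TPM in the 5 FL_KO mice. The groups did not overlap (log2 fold change 1.53 ± 0.43, adjusted p = 0.0307), but the call was lost without any of 5 mice, with adjusted p-values up to 0.0793. Ccl28, a ligand of Ccr10 and Ccr3 made by mucosal epithelia, fell from a median of 0.405 TPM in GC_KO (0.06 to 1.41) to 0.06, 0.06, 0.09, 0.15 and 0.19 TPM in FL_KO (log2 fold change -2.21 ± 0.53, adjusted p = 0.0129).

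Ccl2 and Ccl7 did not pass the test in Nrf2-KO mice. Ccl2 was 4.76, 5.31 and 8.87 TPM in GC_KO and 6.16, 7, 18.4, 18.6 and 21.05 TPM in FL_KO (log2 fold change 1.23 ± 0.44, adjusted p = 0.0876). For Ccl7 the log2 fold change was 1.12 ± 0.40 (adjusted p = 0.0902). Both were called by DESeq2 (adjusted p = 0.0436 for Ccl2 and 0.0496 for Ccl7) and with flight mouse 04 included (adjusted p = 0.0198 and 0.0146), in which Ccl2 was 65.4 TPM and Ccl7 was 87.5 TPM. In a fit of the compared groups alone, Ccl2 was called (adjusted p = 0.0373) and Ccl7 was not (0.0981). The flight response of Nrf2-KO mice was smaller than that of WT mice by 1.55 ± 0.61 on the log2 scale for Ccl2 (interaction, unadjusted p = 0.0193, adjusted p = 0.527) and by 1.58 ± 0.56 for Ccl7 (unadjusted p = 0.0103, adjusted p = 0.462), which did not pass the test. The interaction was below 0 for 22 of the 26 genes, with an unadjusted p under 0.05 in 12 of them and a median of -0.89, against -0.009 over all genes of eWAT. Of all 15317 genes tested in eWAT, 1291 had an unadjusted interaction p under 0.05, in either direction.

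The other direct comparisons in eWAT gave few calls. Ccl12, a mouse relative of Ccl2, was higher in GC_KO (2.21, 4.05 and 5.71 TPM) than in GC_WT (0.24, 0.725 and 1.71 TPM), without overlap (log2 fold change 2.02 ± 0.47, adjusted p = 0.0204; 2.74% of all genes called). This call was lost without GC_WT 03 or GC_WT 07 (adjusted p up to 0.056). Between FL_KO and FL_WT, Ccl28 (-2.23 ± 0.53, adjusted p = 0.0383) and Ccl6 (-0.63 ± 0.15, adjusted p = 0.0482) were lower in FL_KO, and 1.06% of all genes were called. The call of Ccl28 was lost without any of 9 mice (adjusted p up to 0.113) and that of Ccl6 without any of 17 (up to 0.127), and 22 of the 26 genes had a fold change below 0 in the fit with all mice. Interferon response genes fell in eWAT of flown Nrf2-KO mice, with 8 of 13 lower and none higher (Irf7 -0.78 ± 0.21, adjusted p = 0.0229), while the interferon-induced chemokines Cxcl9 (-0.14 ± 0.18, adjusted p = 0.71) and Cxcl10 (-0.99 ± 0.57, adjusted p = 0.314) were not called there.

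The thymus held the most chemokine calls. Between FL_KO and GC_KO, 15 of 22 genes rose and none fell, where 38.2% of all genes tested in Thy were called and 19.3% were higher. Between FL_WT and GC_WT, 4 of 22 rose and none fell, where 22.8% of all genes were called and 11.8% were higher. The median log2 fold change of the 22 genes was 0.73 in Nrf2-KO and 0.34 in WT mice, against -0.008 and 0.021 over all genes. At an unadjusted p under 0.05, 16 genes were higher in Nrf2-KO and 11 in WT. Of all 16307 genes tested in Thy, 7630 passed this cut in Nrf2-KO and 5816 in WT, in either direction.

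Chemokines of the lymphoid stroma were among the thymic genes that rose. Ccl19, the Ccr7 ligand that guides mature thymocytes, was 2.34, 3.46 and 4.05 TPM in GC_WT and 4.98, 5.92 and 8.17 TPM in FL_WT, without overlap (log2 fold change 0.63 ± 0.15, adjusted p = 0.00452). It was 2.28, 2.56 and 3.51 TPM in GC_KO and 6.11, 7.47, 7.88, 8.32 and 9.62 TPM in FL_KO, again without overlap (1.27 ± 0.16, adjusted p = 3.05e-06). Cxcl12, which retains thymocyte precursors, was 57.1, 62.3 and 66.7 TPM in GC_WT and 89.8, 96.7 and 134 TPM in FL_WT (0.54 ± 0.07, adjusted p = 1.62e-05). Ccl21a was called in FL_KO (0.94 ± 0.16, adjusted p = 8.05e-05) and not in FL_WT (0.21 ± 0.15, adjusted p = 0.339), and part of its reads, like those of Ccl19, are shared with near-identical copies. The most abundant thymic chemokine, Ccl25, was not called in either genotype (0.20 ± 0.10 in WT, adjusted p = 0.157; 0.13 ± 0.11 in Nrf2-KO, adjusted p = 0.367).

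Other chemokines rose beside them in Nrf2-KO mice. Ccl11, the eosinophil attractant, was 7.09, 9.915 and 14.4 TPM in GC_KO and 25.5, 27.7, 29.7, 35.9 and 44.9 TPM in FL_KO, without overlap (log2 fold change 1.42 ± 0.21, adjusted p = 1.24e-05), and it rose in WT as well (0.63 ± 0.20, adjusted p = 0.0216). The WT call of Ccl11 was lost without any of 4 mice (adjusted p up to 0.0921) and that of Ccl9 (0.62 ± 0.20, adjusted p = 0.0252) without any of 3 (up to 0.0999). Ccl5, made by T and NK cells, was 7.45, 8.64 and 12.4 TPM in GC_KO and 18.3, 20.1, 21.5, 24.1 and 31.4 TPM in FL_KO (1.09 ± 0.16, adjusted p = 1.89e-05). On the ground, Ccl5 was lower in GC_KO than in GC_WT, where it was 12.0, 16.2 and 23.6 TPM (-0.79 ± 0.16, adjusted p = 0.00515; 3.81% of all genes called). FL_KO and FL_WT did not differ in Ccl5 beyond the spread between mice (-0.01 ± 0.15, adjusted p = 0.979).

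Cxcl16, the transmembrane ligand of Cxcr6 (0.75 ± 0.10, adjusted p = 6.53e-06), and Ccl22, a Ccr4 ligand of dendritic cells (0.99 ± 0.16, adjusted p = 4.35e-05), completed the 6 genes with the smallest adjusted p in FL_KO. The other 9 that rose, named after their values were seen, were Cxcl9, Cxcl10, Ccl8, Cxcl12, Cx3cl1, Ccl17, Ccl9, Cxcl13 and Ccl6, and the log2 fold changes of the 15 ranged from 0.34 to 1.61. No chemokine gene of Thy was called by edgeR between FL_KO and FL_WT, where 2.64% of all genes were called, and DESeq2 called 1. An unadjusted p under 0.05 was found there for 8 of the 22 chemokine genes and for 3233 of all 16307 genes. Without FL_WT 06 edgeR called 2, and without GC_KO 04 it called 1, all higher in FL_KO. The interaction had an unadjusted p under 0.05 in 10 of the 22 genes, all above 0, with the smallest for Ccl5 (0.78 ± 0.22, unadjusted p = 0.00153, adjusted p = 0.369). Among all 16307 genes, 1342 had an unadjusted interaction p under 0.05, in either direction.

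**Figure D3:**
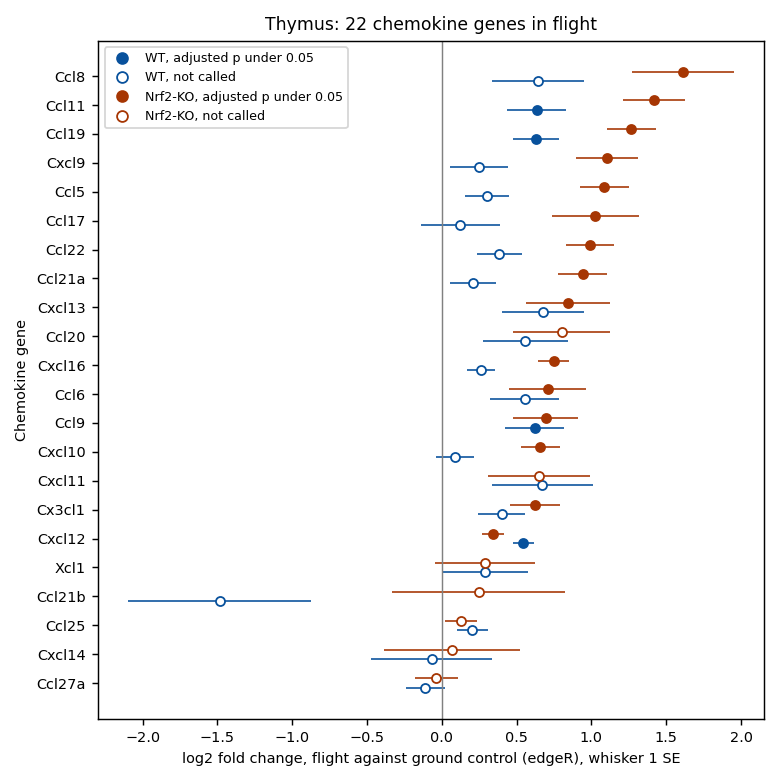
Log2 fold change (horizontal axis) between flight and ground in Thy for the 22 chemokine genes tested (vertical axis), for WT (blue) and Nrf2-KO (brown), with whiskers of 1 SE and filled points for genes called. In Nrf2-KO 15 points are filled, from 0.34 for Cxcl12 to 1.61 for Ccl8, and in WT 4, while Ccl25 stays at or below 0.20 in both.

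Chemokine receptors and cell type markers changed in the same thymuses. Of 20 receptors tested between FL_KO and GC_KO, 11 rose and 2 fell, where 38.2% of all genes were called and 19.3% were higher. Those that fell were Ccr9, the receptor of Ccl25 on thymocytes (-0.50 ± 0.06, adjusted p = 8.28e-07), and Cxcr4, the receptor of Cxcl12 (-0.51 ± 0.07, adjusted p = 1.18e-05), while Cxcr5, the Cxcl13 receptor of B cells, rose (1.06 ± 0.17, adjusted p = 2.69e-05). Between FL_WT and GC_WT 3 rose and 2 fell, with Ccr9 at -0.41 ± 0.05 (adjusted p = 1.2e-05), Cxcr4 at -0.38 ± 0.07 (adjusted p = 0.000411) and Cxcr5 at 0.64 ± 0.16 (adjusted p = 0.00434). The share of receptors called in WT was near the 22.8% of all genes called in this comparison, where 11.8% were higher. On the ground, Cxcr6 (-0.71 ± 0.17, adjusted p = 0.0173) and Ccr2 (-0.54 ± 0.14, adjusted p = 0.0297) were lower and Cxcr2 (2.39 ± 0.62, adjusted p = 0.0283) and 1 other receptor were higher in GC_KO than in GC_WT (3.81% of all genes called).

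Genes of thymocytes fell with flight, 6 of 7 in both genotypes (Rag1, which starts receptor rearrangement, -0.57 ± 0.06 in Nrf2-KO, adjusted p = 9.87e-07, and -0.35 ± 0.06 in WT, adjusted p = 0.000283). Their summed TPM was 2257 to 2702 in GC_WT, 1929 to 2406 in FL_WT, 1645 to 2558 in GC_KO and 1574 to 1760 in FL_KO. Genes of macrophages rose, 12 of 14 in Nrf2-KO and 6 of 14 in WT, as did those of B cells (5 of 6 and 2 of 6), and interferon response genes (12 of 13 and 4 of 13, with Psmb8, a subunit of the immunoproteasome, falling in Nrf2-KO at -0.22 ± 0.07, adjusted p = 0.00975). Of all genes tested in Thy, 38.2% were called in Nrf2-KO (19.3% higher) and 22.8% in WT (11.8% higher). With 6 and 13 genes tested, the WT counts of B cell and interferon genes are not shown to exceed these shares. The summed TPM of the macrophage genes was 163.9 to 212.4 in GC_WT, 211 to 425 in FL_WT, 119.9 to 191 in GC_KO and 226 to 313 in FL_KO. No gene of these lists was at 0 in all mice of a group, and their part in the chemokine result was not tested. On the TPM scale the median of all genes moved by 0.193 (log2) with flight in both genotypes of Thy, and limma on log2(TPM + 1) called 13 chemokine genes higher and 1 lower in WT. Without GC_KO 04, 13 of the Nrf2-KO genes were called, and without FL_WT 06 the WT count was 2.

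In iBAT the transmembrane chemokine Cx3cl1 was the gene called in both flight comparisons. It was 0.29, 0.41 and 0.91 TPM in GC_WT and 0.89, 1.38 and 2.42 TPM in FL_WT, with 1 FL_WT mouse just inside the range of GC_WT (log2 fold change 1.47 ± 0.29, adjusted p = 0.00121; 19.2% of all genes called). In Nrf2-KO it was 0.31, 0.385 and 0.79 TPM in GC_KO and 0.89, 1.22, 1.28, 1.87 and 2.61 TPM in FL_KO, without overlap (1.29 ± 0.30, adjusted p = 0.00246; 33.5% of all genes called). Neither call was lost without any of the 3 mice with muscle transcripts. In the other 8 tissues its fold changes were between -0.31 and 0.46 in WT and between -0.35 and 0.62 in Nrf2-KO, where it rose in Thy.

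Between FL_KO and GC_KO, 5 of 13 chemokine genes of iBAT were called, a share near the 33.5% of all genes. These 5 calls stayed when each of the 3 mice with muscle transcripts was left out in turn. Ccl9 (1.16, 1.85, 2.40, 2.65 and 2.65 TPM in FL_KO and 0.59 to 0.88 TPM in GC_KO; 1.08 ± 0.28, adjusted p = 0.0047) and Cxcl16 (0.87 ± 0.24, adjusted p = 0.00709) rose without overlap. Ccl27a (-0.75 ± 0.24, adjusted p = 0.0207) and Cxcl14 (-0.47 ± 0.17, adjusted p = 0.0429), which is abundant in brown fat, fell. The call of Ccl27a was lost without FL_KO 01 or FL_KO 02 (adjusted p up to 0.0649) and that of Cxcl14 without any of 8 mice (up to 0.131). On the TPM scale the median of all genes moved by 0.333 with flight, and Cxcl14, which lost its call, was 11.4 ± 1.25 TPM in GC_KO (SD, n = 6) and 11.1 ± 3.64 TPM in FL_KO (SD, n = 5), with a fold change of -0.08 by limma on log2(TPM + 1) (adjusted p = 0.689). Same-numbered Nrf2-KO mice deviated together in iBAT and Liv, though for some mice the best match had another number. With the number as a block, Ccl6 was also called in iBAT (0.83, adjusted p = 0.00834). Macrophage genes rose here too, 6 of 11 tested (Adgre1 1.18 ± 0.28, adjusted p = 0.00246), with a summed TPM of 22.58 to 40.4 in GC_KO and 48.1 to 90.5 in FL_KO, and their part was not tested. Of 10 receptors tested, Ackr3, a scavenger of Cxcl12, rose (1.08 ± 0.39, adjusted p = 0.0367). In iBAT of WT mice Cx3cl1 was the 1 gene of 13 called.

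The liver and the spleen each gave a few calls. Ccl9 was lower in Liv of FL_WT (6.86, 8.86 and 9.94 TPM) than of GC_WT (11.1, 15.2 and 26.3 TPM), without overlap (log2 fold change -0.95 ± 0.18, adjusted p = 0.00581; 3.45% of all genes called). In Nrf2-KO its fold change was -0.48 ± 0.19 (adjusted p = 0.195), and with the mouse number as a block it was called (-0.58, adjusted p = 0.0436). Macrophage genes fell in the same WT livers, 5 of 13 (Adgre1 -0.94 ± 0.25, adjusted p = 0.0408; Csf1r -0.98 ± 0.21, adjusted p = 0.0111), with a summed TPM of 95 to 180 in GC_WT and 66.66 to 127 in FL_WT, and their part was not tested. Cxcl9, induced by interferon gamma, fell in FL_KO (1.45, 1.55, 1.59, 2.1 and 2.95 TPM) against GC_KO (2.46, 4.7 and 7.22 TPM; -1.48 ± 0.31, adjusted p = 0.00674; 3.34% of all genes called). The eosinophil attractant Ccl24 fell as well (-1.40 ± 0.38, adjusted p = 0.0449), but its call was lost without any of 15 mice. Between FL_KO and FL_WT, Cxcl13 was higher in FL_KO (1.09, 1.43, 1.85, 4.26 and 7.08 TPM) than in FL_WT (0.27, 0.705 and 0.85 TPM), without overlap (2.28 ± 0.50, adjusted p = 0.00939; 3.65% of all genes called). Cxcl13 had the same direction on the ground, at 1.29, 1.715 and 3.82 TPM in GC_KO and 0.18, 0.67 and 1.73 TPM in GC_WT, with overlap. No chemokine gene of Liv was called by edgeR on the ground (2.64% of all genes), 5 had an unadjusted p under 0.05, and DESeq2 called 1.

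In Spl, Cxcl12 was higher in FL_WT (683, 715 and 916 TPM) than in GC_WT (509.85, 599 and 642 TPM), without overlap (log2 fold change 0.38 ± 0.08, adjusted p = 0.0207; 2.26% of all genes called). Ackr3, its scavenger, rose as well, in WT (0.35 ± 0.08, adjusted p = 0.021) and in Nrf2-KO (0.37 ± 0.08, adjusted p = 0.0307). Ccl5 fell in FL_WT (145, 164 and 198 TPM, against 192, 214 and 233 TPM in GC_WT; -0.35 ± 0.08, adjusted p = 0.0187). Erythroid genes fell in the same spleens, 6 of 7 in WT and 7 of 7 in Nrf2-KO, with a summed TPM of 3180 to 11980 in GC_WT and 616 to 2611 in FL_WT, and their part was not tested. The call of Cxcl12 was lost without any of 4 mice (adjusted p up to 0.0656) and that of Ccl5 without GC_WT 03 (0.0517). Between FL_KO and GC_KO no chemokine gene of Spl was called by edgeR (0.668% of all genes), 6 had an unadjusted p under 0.05 and DESeq2 called 1. Between GC_KO and GC_WT none was called by edgeR or DESeq2 (1.13% of all genes), and 3 had an unadjusted p under 0.05. Cxcl13 was slightly lower in FL_KO (293, 298, 322, 374 and 382 TPM) than in FL_WT (367, 430 and 491 TPM; -0.30 ± 0.07, adjusted p = 0.0458; 1.16% of all genes called), a call lost without any of 10 mice. Of 21 receptors, Cxcr2, the neutrophil receptor of Cxcl1, was lower in FL_KO than in FL_WT (-0.87 ± 0.16, adjusted p = 0.0025).

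In Kid 7 calls were made between genotypes and 1 between flight and ground. Between FL_WT and GC_WT no chemokine gene was called by edgeR, DESeq2 or limma (0.119% of all genes), and 3 of 17 had an unadjusted p under 0.05. Cxcl10, the interferon-induced Cxcr3 ligand, was 2.85, 2.95 and 3.92 TPM in GC_KO and 0.76, 1.15 and 1.65 TPM in FL_KO, without overlap (log2 fold change -1.54 ± 0.26, adjusted p = 0.0435; 0.159% of all genes called). It was 4.21, 4.29 and 4.67 TPM in FL_WT, above all FL_KO mice (-1.90 ± 0.25, adjusted p = 0.000988; 1.83% of all genes called). The flight response differed between genotypes by -2.04 ± 0.34 (unadjusted p = 5e-05), which did not pass the adjustment over all genes (adjusted p = 0.756). The call between FL_KO and GC_KO was lost without any of 11 mice. Its relative Cxcl9 was also lower in FL_KO (0.14, 0.22 and 0.38 TPM) than in FL_WT (0.8, 0.94 and 1.07 TPM; -1.91 ± 0.35, adjusted p = 0.0115), and that call was lost without FL_KO 01 or FL_WT 10 (adjusted p up to 0.0605). Of 13 interferon response genes, 1 fell between FL_KO and FL_WT (Gbp2 -1.38 ± 0.20, adjusted p = 0.00168), with a summed TPM of 43.3 to 60.9 in FL_KO and 68.1 to 74.6 in FL_WT.

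The promoter of Cxcl10 is shown as that of the chemokine gene called in Kid in both comparisons with FL_KO. The antioxidant response element, the motif TGACNNNGC bound by Nrf2 with its partners, was found in 2 of the 33 promoters, those of Cxcl10 and Cxcl13, and in 10.2% of all 32851. The window spans chr5:92348890-92349139 on the minus strand (RefSeq, GRCm38.p6), and capitals mark the motif at base -76, read on the opposite strand.
Cxcl10: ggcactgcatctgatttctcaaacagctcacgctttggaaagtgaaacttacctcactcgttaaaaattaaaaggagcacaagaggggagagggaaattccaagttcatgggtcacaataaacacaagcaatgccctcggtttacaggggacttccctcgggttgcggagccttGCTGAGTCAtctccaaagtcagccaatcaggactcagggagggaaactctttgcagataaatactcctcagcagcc

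Cxcl12 and Cx3cl1 were lower in Kid of Nrf2-KO mice. Cxcl12 was 52.1, 55.0 and 57.2 TPM in GC_KO and 75.7, 82.4 and 90.8 TPM in GC_WT (log2 fold change -0.62 ± 0.10, adjusted p = 0.00651; 1.61% of all genes called), and 56.5, 71.5 and 72.4 TPM in FL_KO against 88.2, 93.1 and 100.49 TPM in FL_WT (-0.54 ± 0.10, adjusted p = 0.0145). Neither pair of groups overlapped, and the call in flight was lost without FL_WT 08 (adjusted p = 0.0837). Cx3cl1 was 27.88, 28.4 and 31.0 TPM in GC_KO and 36.9, 37.1 and 40.2 TPM in GC_WT (-0.42 ± 0.09, adjusted p = 0.0254), and in flight its difference was -0.29 ± 0.09 (adjusted p = 0.128). The call of Cx3cl1 was lost without any of the 6 mice compared, which then left 2 against 3.

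**Figure D4:**
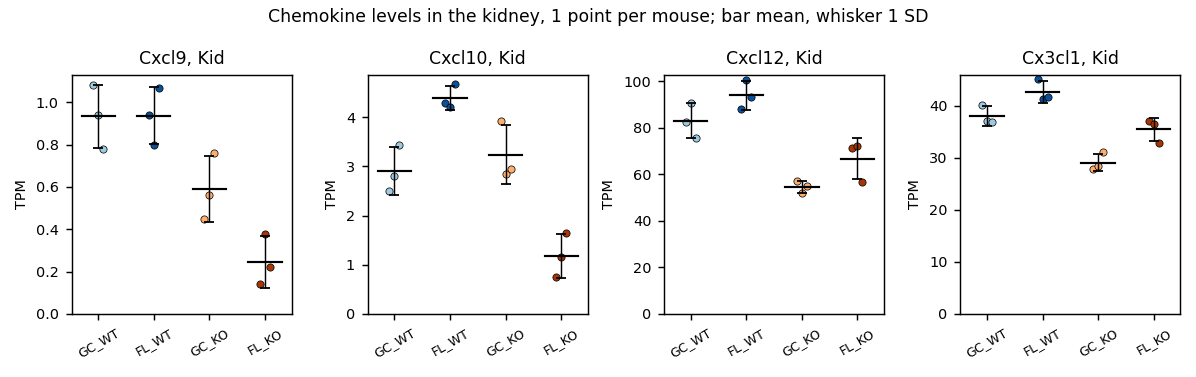
TPM of Cxcl9, Cxcl10, Cxcl12 and Cx3cl1 in Kid by group (horizontal axis), with 1 point per mouse, the mean as a bar and 1 SD as a whisker. The 3 FL_KO mice are lowest for Cxcl10, at 0.76 to 1.65 TPM, and both Nrf2-KO groups lie below both WT groups for Cxcl12, while for Cx3cl1 FL_KO (up to 37.05 TPM) overlaps GC_WT (from 36.9 TPM).

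Ccl28 was the chemokine gene called most often between genotypes, and its direction depended on the tissue. It lies on chromosome 13 (GRCm38, 119623819-119654359, plus strand). In Kid it was 1.65, 2.29 and 2.42 TPM in GC_WT and 7.1, 10.2 and 13.0 TPM in GC_KO, without overlap (log2 fold change 2.24 ± 0.28, adjusted p = 0.000706). In flight it was 1.44, 1.87 and 2.66 TPM in FL_WT and 6.93, 11.6 and 13.2 TPM in FL_KO, again without overlap (2.38 ± 0.28, adjusted p = 0.000383). Flight itself did not change it in Kid beyond the spread between mice (-0.16 ± 0.31 in WT, adjusted p = 0.98; -0.02 ± 0.25 in Nrf2-KO, adjusted p = 0.988).

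In Cbr, Ccl28 was lower in Nrf2-KO. It was 1.74, 1.995 and 3.26 TPM in GC_WT and 0.33, 0.76 and 1.91 TPM in GC_KO, with 1 GC_KO mouse inside the range of GC_WT (log2 fold change -1.27 ± 0.27, adjusted p = 0.0126; 0.836% of all genes called). In flight it was 1.56, 2.65 and 2.88 TPM in FL_WT and 0.45, 0.5, 0.6, 0.7 and 0.86 TPM in FL_KO, without overlap (-1.95 ± 0.30, adjusted p = 0.000297; 0.531% of all genes called). It was lower in iBAT of FL_KO than of FL_WT as well (-1.97 ± 0.44, adjusted p = 0.0202; 1.5% of all genes called), where levels were at most 0.55 TPM. This call was lost without FL_KO 11, a mouse with muscle transcripts (-1.79, adjusted p = 0.0625). It was likewise lost without FL_KO 12 or FL_WT 05, whose muscle genes summed to 2.18 and 25.69 TPM (adjusted p up to 0.0759). On the ground the iBAT difference was -1.49 ± 0.42 (adjusted p = 0.0729), and no chemokine gene was called there by edgeR (2.14% of all genes), 1 had an unadjusted p under 0.05 and DESeq2 called 1. In TpB and MdB, where nothing was called, the fold changes of Ccl28 between FL_KO and FL_WT were -1.46 ± 0.75 and -2.91 ± 0.77. The MdB value rests on 2 FL_KO mice at 0.06 and 0.1 TPM, with expected counts of 2 and 3. Over the 6 tissues tested, the sign between FL_KO and FL_WT was thus positive in Kid and negative in the other 5.

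**Figure D5:**
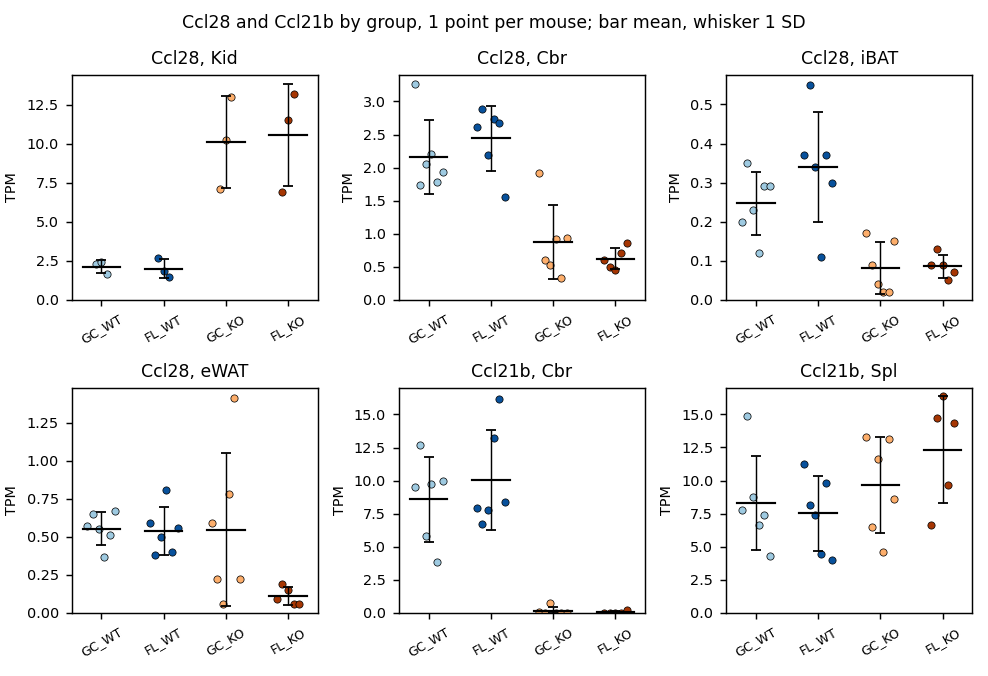
TPM of Ccl28 in Kid, Cbr, iBAT and eWAT and of Ccl21b in Cbr and Spl by group (horizontal axis), with 1 point per mouse, the mean as a bar and 1 SD as a whisker cut at 0. Ccl28 is higher in Nrf2-KO than in WT in Kid (at least 6.93 against at most 2.66 TPM) and lower in Cbr and iBAT, and Ccl21b is at most 0.79 TPM in Cbr of Nrf2-KO mice and 4.03 to 16.4 TPM in Spl over all groups, where reads are shared with Ccl21a.

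Ccl21b had the largest fitted fold change between genotypes of the 161 pairs tested, on the ground and in flight. In Cbr it was 3.82, 9.64 and 12.7 TPM in GC_WT and 6.76, 8.19 and 16.2 TPM in FL_WT, against at most 0.79 TPM in GC_KO, where 4 of 6 mice were at 0, and at most 0.24 TPM in FL_KO, where 4 of 5 were at 0. Genotypes did not overlap (adjusted p = 8.14e-06 on the ground and 3.74e-06 in flight; fitted log2 fold changes of -5.33 ± 0.60 and -7.43 ± 0.79, which depend on the prior count). The level of Ccl21b itself is uncertain. Its expected counts were equal to those of the predicted gene Gm10591 within 0.01 in all 192 samples. The predicted gene Gm13304 holds the same 402 bases, so its reads from these bases cannot be told apart from those of Ccl21b. The expected counts of Ccl21b and Gm10591 together were 223 in GC_WT and 3 in GC_KO, a depth-scaled ratio of 73.6 (95% interval 24.9 to 360). They were 253 in FL_WT and 1 in FL_KO, a ratio of 214 (38 to 8470). These intervals cover counting error only, and not how reads were shared out between the copies.

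The sequences are shown because these genes share nearly all bases. The annotated transcripts of Ccl21b and Gm10591 are both 402 bases long and identical, and the predicted gene Gm13304 holds the same 402 bases. Ccl21a, the main spleen copy, differs from them at 2 of 402 bases (99.5% identity). Bases 74 to 204 of the Ccl21b transcript are printed with the aligned bases of Ccl21a (GENCODE vM21 transcripts), and the capitals mark the differing positions.
Ccl21b: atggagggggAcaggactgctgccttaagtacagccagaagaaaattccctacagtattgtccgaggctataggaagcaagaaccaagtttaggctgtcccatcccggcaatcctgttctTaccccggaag
Ccl21a: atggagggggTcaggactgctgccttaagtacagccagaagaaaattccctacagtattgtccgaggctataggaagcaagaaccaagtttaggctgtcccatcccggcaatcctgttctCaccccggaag

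Gm13304, chosen after its values were seen, has a transcript of 837 bases that reaches beyond the shared part, and in Cbr it was 46.2 to 68.6 TPM in GC_WT and 44.0 to 69.0 TPM in FL_WT, against at most 0.33 and 0.4 TPM in GC_KO and FL_KO. Ccl21a was at most 0.55 TPM in Cbr of all groups. Neighbours of Ccl21b on chromosome 4 were lower too. The deposited table holds 40 genes between Ccl27a and Ccl21a, which span 999 kb, with Ccl21b and Gm10591 among them. Of these 40, 22 were tested in Cbr, and 15 were lower and none higher in Nrf2-KO, on the ground and in flight alike. The 15 include Ccl21b and Gm10591, and Fam205a2 and Fam205a3 also had equal values, so they are not independent of each other. Of all genes tested in Cbr, 0.836% were called on the ground and 0.531% in flight. In the other 5 tissues where Ccl21b was tested it was not called, with fold changes between -1.01 and 0.90 on the ground and between -0.44 and 1.44 in flight. In Spl it was 4.03 to 16.4 TPM over all groups, beside 649 to 1000.1 TPM of Ccl21a, and since the copies differ at 2 bases and the counts of both are fractional, reads of Ccl21a cannot be told apart from its own there. In Cbr flight changed no chemokine gene by edgeR, DESeq2 or limma (0.0244% of all genes called in WT and 0.0061% in Nrf2-KO), and none had an unadjusted p under 0.05.

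Genes called in 1 tissue often had values that did not pass in others. Cxcl12, tested in 9 tissues, had uncalled fold changes of -0.12 to 0.50 between FL_WT and GC_WT and of -0.08 to 0.97 between FL_KO and GC_KO, the latter highest in TpB. Ccl2 and Ccl7 were tested in eWAT and TpB, with fold changes of 0.88 and 0.86 between FL_WT and GC_WT in TpB that did not pass. Ccl9, tested in all 9, ranged from -0.95 to 0.65 in WT, and Ccl6 from -0.67 to 0.63. Cxcl1 was tested in eWAT, Liv and Kid, and its uncalled values were -0.41 to 0.49 in WT and 0.15 to 1.83 in Nrf2-KO. Uncalled values of Ccl5 between FL_KO and GC_KO were -2.45 to 0.57 over 4 tissues, and those of Cxcl10 -0.99 to 0.80.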

How the data were processed

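The authors aligned single-end Illumina reads to mm10 with STAR 2.6.1 and deposited, per gene of GENCODE, RSEM 1.3.1 expected counts, TPM and FPKM. The counting strand setting is not given in the sources used here, and 192 FPKM columns were not used. Deposited expected counts were rounded to whole numbers and tested per tissue with edgeR 4.0.16 (R 4.3.3; TMM factors, filterByExpr, quasi-likelihood test, all groups in 1 fit), with Benjamini-Hochberg adjustment over all genes tested and a threshold of 0.05. Deposited TPM gave the levels printed. Each mouse is 1 replicate, so p-values measure the spread between mice. Samples were grouped by the labels' genotype and condition, and flight mouse 04 was left out as in the study.

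The members, marker lists and tests were chosen with earlier results of these data known. Named were Ccl2, Ccl7, Ccl3, Ccl5, Ccl11 and Ccl8 in eWAT, up to 6 called genes per direction, tissue and comparison by smallest adjusted p, the 3 most abundant per tissue, up to 3 called receptors by smallest adjusted p, and up to 3 genes of each other list in list order. Alternatives were DESeq2 1.42.0, RLE factors, limma 3.58.1 on log2(TPM + 1) or log2(TPM + 0.1) (genes whose mean TPM reached 1), no count filter, only the compared groups, flight mouse 04 included, a replicate block, a library set block in TpB, and leaving out each mouse. The study's mouse numbers name different animals in flight and on the ground. Among tissues with at least 3 pairs, same-numbered mice deviated together, with every pair's correlation over 0.1, in Liv (5 pairs, 0.265 to 0.436) and iBAT (5 pairs, 0.103 to 0.314) of Nrf2-KO mice. The ground mouse of the same number correlated best for 2 of the 5 flight mice in Liv and 3 in iBAT. These correlations are therefore not shown to be particular to the shared number. Coordinates and transcripts are GENCODE vM21 (GRCm38), and promoters are RefSeq (GRCm38.p6). Scripts were tested on simulated data.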

Additional observations from a re-analysis of the deposited data

Results flagged for a closer look

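Of 144 groups of 4 to 6 mice, over 41 pairs of gene and tissue, 10 held a mouse far from the others by Dixon's test, where chance flags about 1 in 20 groups. In Thy, FL_WT 06 had 8.17 TPM of Ccl19 (next 6.17) and 31.14 TPM of Ccl5 (next 24.87), and GC_KO 12 had 12.35 TPM of Ccl5 (next 9.17). In eWAT, FL_WT 06 had 15.88 TPM of Cxcl1 (next 7.08) and GC_KO 01 had 13.38 TPM of Ccl5 (next 6.7). In Cbr, Ccl21b was 0.79 TPM in GC_KO 04 (next 0.06) and 0.24 TPM in FL_KO 12 (next 0), and Ccl28 was 3.26 TPM in GC_WT 03 (next 2.2). GC_WT 08 had 26.28 TPM of Ccl9 in Liv (next 16.34) and 0.91 TPM of Cx3cl1 in iBAT (next 0.49). FL_WT 06 was the mouse in 3 of the 10 and GC_WT 08 in 2.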

How the results depend on the processing

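The count of called pairs between FL_KO and FL_WT (11 of 161) was 7 with limma at either pseudocount, with no count filter and with only the compared groups. That between FL_WT and GC_WT (17) was 32 with limma on log2(TPM + 0.1), 30 higher and 2 lower, and 30 on log2(TPM + 1), 28 higher and 2 lower. That between GC_KO and GC_WT (7) was 4 with only the compared groups. Of the 32 and the 30 limma calls, 14 each were among the 17. limma, the fits with no count filter and those of the compared groups each tested their own set of pairs, not these 161. The cause of the different counts was not tested. Leaving out each mouse gave 7 to 14 calls between FL_KO and FL_WT (7 without FL_KO 11 or FL_KO 12), 20 to 28 between FL_KO and GC_KO, 11 to 23 between FL_WT and GC_WT (11 without FL_WT 06), 5 to 9 between GC_KO and GC_WT, and 0 to 0 for the interaction. DESeq2 gave 14, 29, 20, 9 and 0 in the same order. In eWAT, Ccl11 between FL_KO and GC_KO turned to -0.10, -0.02, -0.03 and -0.06 without FL_KO 01, FL_KO 02, GC_KO 11 or GC_KO 12 (highest 0.17, without GC_KO 04), and Ccl8 between FL_WT and GC_WT to -0.15, -0.005, -0.09 and -0.05 without FL_WT 03, FL_WT 10, GC_WT 06 or GC_WT 10 (highest 0.23, without GC_WT 07); neither was called. Depth limits low genes most, since calls at under 1 TPM rest on few reads.

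With the replicate block, 26 pairs were called between FL_KO and GC_KO, 22 of them among the 25 without it, and 19 between FL_WT and GC_WT, 15 of them among the 17, and 0 for the interaction. Lost under the block were Cxcl10 in Kid (-1.39, adjusted p = 0.218), Ccl6 (0.0898) and Cxcl13 (0.0778) in Thy between FL_KO and GC_KO, and Cxcl12 in Spl (0.0646) and Ccl9 in Thy (0.0726) between FL_WT and GC_WT. Spl and Thy had pairs at or below 0.1, and Kid had 2 pairs (0.116 and 0.224), too few to judge the pairing.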
